A study of Rattus norvegicus with 6 samples.

Results

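Enolase, phosphoglycerate mutase and lactate dehydrogenase each exist as isozymes made by separate genes, and 8 of these genes were followed in the rat heart primordium around the first heartbeat. The genes were Eno1, Eno2 and Eno3, Pgam1 and Pgam2, and Ldha, Ldhb and Ldhc. They were taken by gene name, ignoring case, with every probe that carries one of these names and is no control. This gave 11 probes of 30367 on the array, for 8 of 19297 genes with a symbol. Of the 11 probes, 10 for 7 genes were tested, and the Ldhc probe was not well above background on any array.

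The samples were heart primordia of Wistar rat embryos at embryonic day 10, untreated, divided into a pre-heartbeat and a post-heartbeat group with 3 samples each. By the study's methods, the primordium of the pre-heartbeat group was still flat at its centre and that of the post-heartbeat group was raised there, and the first and second heart fields were dissected together. The study's definition also took in the number of somites, with a higher range in the post-heartbeat group, so the groups differed in developmental stage as well. The paper gives as a limit that the groups were told apart only from earlier ex vivo work. Each sample was hybridised to 1 single-colour Agilent rat array. Nothing in the labels says whether a sample is 1 embryo or a pool, or that samples come from separate litters, so the p-values measure only the spread between these samples.

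These enzymes serve 3 late steps on the way from glucose to lactate. Phosphoglycerate mutase moves the phosphate of 3-phosphoglycerate, enolase removes water to give phosphoenolpyruvate, and, after pyruvate kinase, lactate dehydrogenase interconverts pyruvate and lactate. Each enzyme has a form found in most tissues (Eno1, or alpha-enolase, Pgam1 and Ldha, the M subunit) and forms tied to particular tissues. Eno3 (beta-enolase) and Pgam2 (the M form) are the isozymes of striated muscle, Eno2 (gamma-enolase) is best known from neurons and endocrine cells, Ldhb (the H subunit) prevails in the adult heart, and Ldhc is the form of the testis. In the developing heart and skeletal muscle, the muscle enolase takes over from the alpha form as the muscle matures. The comparison asked whether the balance between these forms differed across the onset of beating.

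The muscle enolase Eno3 was higher after the first heartbeat by 1.27 on the log2 scale (2.42-fold, limma adjusted p = 0.0364), where the same test called 0.158% of all genes higher and 0.0315% lower. It called 0 members lower. Pgam2, Ldhb and Eno2 had higher signals on every post-heartbeat array than on any pre-heartbeat array, as had 6.31% of genes, with differences of 0.90, 0.70 and 0.69, but did not pass the adjusted p of 0.05. The widespread forms Eno1, Pgam1 and Ldha differed by -0.15, -0.05 and -0.10, within the spread of the arrays. The ratios Eno3/Eno1 and Ldhb/Ldha were higher on all 3 post-heartbeat arrays than on any pre-heartbeat array, by 1.43 and 0.80, with the smallest p that 3 arrays against 3 allow (exact permutation p = 0.1). Ratios to Eno1 were higher without overlap for 5.53% of genes and ratios to Ldha for 7.08%. The groups of Pgam2/Pgam1 overlapped (change of 0.96, exact permutation p = 0.2).

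The probe sequences are shown where they bear on which isozyme was read. Each probe has 60 bases, and the positions are those of the array's design on the rn4 build. The Eno3 probe matched NM_012949 from base 1317 and lay at chr10:57542200-57542259 on the plus strand, and its first 30 bases are given. The Pgam2 probe matched NM_017328 from base 639 at chr14:86466146-86466205 on the minus strand. The Eno2 probe shown matched NM_139325 from base 769 at chr4:160893529-160893588 on the minus strand. Each probe fell within a single run of bases in the genome, so none of these 3 crossed an exon junction.

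Eno3 probe, first 30 bases: tttgctggacgaaagttccgtaatccaaag
Pgam2 probe: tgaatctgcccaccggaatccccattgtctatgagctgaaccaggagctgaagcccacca
Eno2 probe: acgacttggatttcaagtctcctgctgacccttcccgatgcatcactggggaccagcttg

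The Ldhb and Ldhc probes are shown together because they read overlapping stretches of related transcripts. The Ldhb probe (NM_012595 from base 803) ran over 2029 bases at chr4:180061921-180063949 on the minus strand, and the Ldhc probe (NM_017266 from base 901) over 1170 bases at chr1:97433896-97435065 on the plus strand, so both crossed an exon junction. Placed against each other without gaps, they shared a stretch of 37 bases, of which 22 were identical (capitals) and 15 differed.

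Ldhb probe: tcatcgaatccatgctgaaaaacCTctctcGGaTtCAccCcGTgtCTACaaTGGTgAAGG
Ldhc probe: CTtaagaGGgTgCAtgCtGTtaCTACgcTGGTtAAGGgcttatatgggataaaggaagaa

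The 3 Eno1 probes were annotated in different places. Those for BC090069 and NM_001109908 lay near each other at chr5:167405465-167405524 and chr5:167405206-167405265, both on the plus strand. The third, designed from X02610, was placed at chr10:53300221-53300280 on the minus strand, away from the other two. RefSeq (GRCr8) names 31 pseudogenes after Eno1, 30 after Ldha and 13 after Pgam1, but 1 after Ldhb and none after Eno2, Eno3, Pgam2 or Ldhc. Signal from near-identical copies was not told apart from that of the genes themselves. The Pgam1 probe was placed at chr10:110469834-110469894, whereas RefSeq puts the gene on chromosome 1 of GRCr8. Whether a probe lies in an untranslated part was not annotated here.

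X02610 probe of Eno1: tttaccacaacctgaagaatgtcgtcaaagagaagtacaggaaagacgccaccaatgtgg

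Signals are given as log2 values above or below their array's 75th percentile, in the order of replicates 1, 2 and 3, so that 0 is the 75th percentile and 1 unit is a doubling. Probes differ in how brightly they bind, so levels were compared between groups for a probe and never between probes. The 75th percentile itself lay between 1146 and 1702 intensity units, between 39375 and 41327 of 58717 spots were well above background, and no spot was saturated. Replicates 1 of both groups and post-heartbeat replicate 2 shared 1 slide and the other 3 arrays shared another, so the slides held the groups in unequal numbers. In a limma fit on slide alone, without the group, 3537 of 19300 tested probes differed between slides at an adjusted p under 0.05. For this reason, differences within each slide are given beside the pooled ones. Slide 1 held a single pre-heartbeat array and slide 2 a single post-heartbeat array. Each within-slide difference therefore rests on a single array on that side and has no spread for it. Over all 12686 tested genes the median difference was -0.02, and 20 genes (0.158%) were called higher and 4 (0.0315%) lower by limma at an adjusted p under 0.05.

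The tissue was read through its marker genes. All 18 cardiac muscle markers were tested, and 4 were higher by limma. Without overlap, 13 were higher and 0 lower (6.31% and 6.91% of all genes). The summed signal of all 18, in units of the 75th percentile, was 409 to 689.3 before and 769 to 912.6 after the first heartbeat. The marker sum of neural ectoderm and neurons (8 of 17 tested) was 23.8 to 25.4 before and 18.1 to 19.2 after, that of endothelium (7 of 8) 15.7 to 16.9 and 10.9 to 12.6, and that of endoderm (7 of 10) 46.3 to 49.1 and 30.3 to 39. Such sums follow the brightest genes. In both of the last lists limma called 0 genes (at an unadjusted p under 0.05, 1 endothelial gene was higher and 1 lower, and 1 endodermal gene was lower), and 1 was lower without overlap, Kdr of endothelium (-0.55) and Ttr of endoderm (-0.58), while Tie1 (0.50), Pecam1 (-0.08), Afp (0.24) and Amn (0.03) had overlapping groups. In the neural list 1 gene, Otx2, was lower by limma (-1.56), Tubb3 and Stmn2 were lower without overlap, and Pax3 was higher without overlap (0.12). Over all genes, limma called 0.158% higher and 0.0315% lower, against 4.7% and 3.35% at an unadjusted p under 0.05. Groups did not overlap for 6.31% and 6.91%. With slide as a block, limma called 10 cardiac genes and 1 erythroid gene, Epor, higher (1.47% of all genes). It called 2 neural genes and 1 endothelial gene, Cldn5 (-0.93), lower (0.552%). The sum for somites and skeletal muscle (6 of 9) was 13.7 to 16.3 before and 16.2 to 18.0 after, and that for erythroid cells (7 of 10) 2.21 to 4.10 and 3.42 to 5.94. Without the slide block limma called 0 erythroid genes. Hbb (1.22), Epor (1.26) and Nfe2 (0.88) were higher without overlap and at an unadjusted limma p under 0.05. Klf1 (-0.25), Alas2 (-0.61), Hba-a1 (0.28) and Hbz (0.72) had overlapping groups. Rbfox3, Neurog1, Six3 and Zic1 of the neural list, Myod1 and Msgn1 of the skeletal list and Gata1 of the erythroid list were not well above background on any array. The primordium was measured whole, so a change in the number of cells of a type and a change in RNA per cell cannot be told apart.

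**Figure D1:**
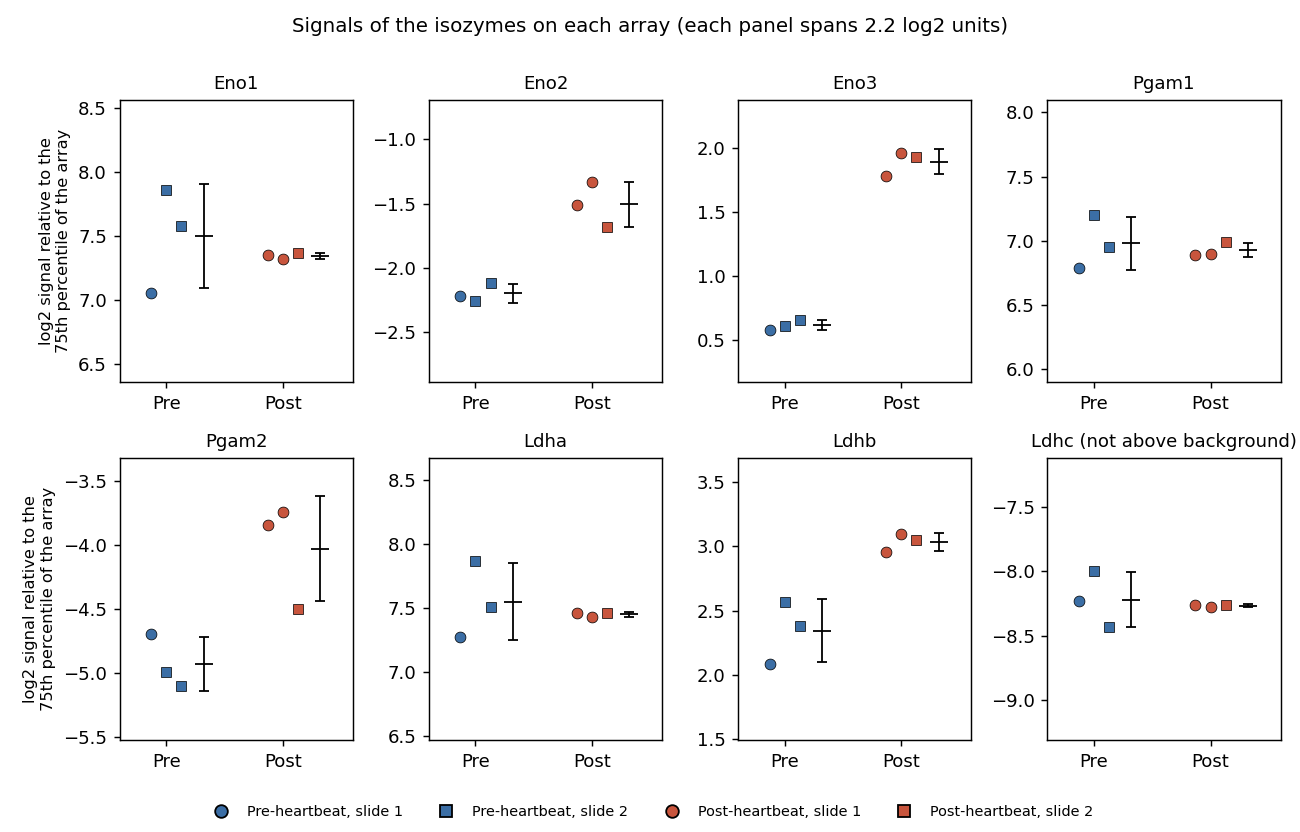
Log2 signal of each gene's brightest tested probe, and of the Ldhc probe, with the array's 75th percentile at 0, for 3 pre-heartbeat (blue) and 3 post-heartbeat (red) arrays on slide 1 (circles) and slide 2 (squares); bars are mean ± SD, and every panel spans the same range. Eno3 lies between 0.58 and 0.66 before and between 1.78 and 1.96 after the first heartbeat, and the groups of Eno1, Pgam1, Ldha and Ldhc overlap.

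Of the enolases, Eno3 had log2 signals of 0.58, 0.61 and 0.66 on the pre-heartbeat arrays and 1.78, 1.96 and 1.93 on the post-heartbeat arrays. The groups lay far apart, and the means were 0.62 ± 0.04 and 1.89 ± 0.10 (SD, n = 3 each). The difference was 1.27 (SE 0.13, 95% interval 0.96 to 1.58), with an adjusted p of 0.0364 by limma over all 19300 tested probes. The difference ranked 13th by p and 95th by size of rise among them. Within slide 1 the difference was 1.29 and within slide 2 it was 1.30, and a fit with slide as a block gave an adjusted p of 0.00841. Eno3 was thus 1 of 7 tested member genes called higher, against 0.158% of all genes, and in the slide-blocked fit it was again 1 of 7, against 1.47% of genes (0.552% lower). Without any 1 of the 6 arrays the difference stayed between 1.24 and 1.33, but the limma adjusted p rose to between 0.0996 and 0.273, so the call needed all 6 arrays.

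The brighter Eno2 probe, for ENSRNOT00000005601 at chr4:160890338-160890397, had log2 signals of -2.22, -2.26 and -2.12 before and -1.51, -1.33 and -1.68 after the first heartbeat. The groups did not overlap. The difference was 0.69 (SE 0.15, 95% interval 0.34 to 1.04, 1.61-fold), with a limma adjusted p of 0.192 that became 0.0888 after blocking on slide. The second Eno2 probe, whose sequence is given above, had signals of -3.07, -3.82 and -3.77 before and -2.69, -2.67 and -3.35 after. Its difference was of like size (0.65, SE 0.28), but its groups overlapped and its limma adjusted p was 0.721. Eno2 is also used as a neuronal marker, and the part of neural tissue in its difference was not tested.

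The brightest Eno1 probe (BC090069) had log2 signals of 7.06, 7.86 and 7.58 on the pre-heartbeat arrays and 7.35, 7.32 and 7.37 on the post-heartbeat arrays. The post-heartbeat arrays lay inside the wider range of the pre-heartbeat arrays. The difference was -0.15 (SE 0.21, 95% interval -0.66 to 0.35, limma adjusted p = 0.866). The NM_001109908 probe differed by 0.04 and the X02610 probe by -0.04, and both had overlapping groups. For each of the 3 probes the difference was positive within slide 1 (0.20 to 0.27) and negative within slide 2 (-0.34 to -0.08).

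Of the mutases, Pgam2 had log2 signals of -4.69, -4.99 and -5.10 before and -3.84, -3.74 and -4.50 after the first heartbeat. The groups did not overlap, and post-heartbeat replicate 3 stood closest to the pre-heartbeat arrays. The difference was 0.90 (SE 0.24, 95% interval 0.34 to 1.46, 1.87-fold), with a limma adjusted p of 0.300, and after blocking on slide it was 0.73 (adjusted p = 0.0599). The probe was dim, with intensities of 36.2 to 65.3 before and 75.3 to 106 after. The difference was 0.39 when the background was corrected by normexp. The slide 2 arrays were lower than those of slide 1 by 0.77, a larger gap than for any other tested member. Slide 1 held more post-heartbeat and slide 2 more pre-heartbeat arrays, so this gap also holds part of the group difference. The within-slide differences were 0.91 and 0.54.

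Pgam1 had log2 signals of 6.79, 7.20 and 6.95 before and 6.89, 6.90 and 6.99 after. The groups overlapped and the means were 6.98 ± 0.21 and 6.93 ± 0.06 (SD, n = 3 each). The difference was -0.05 (SE 0.15, 95% interval -0.42 to 0.31, limma adjusted p = 0.925), and its sign changed between slides.

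Of the lactate dehydrogenases, Ldhb had log2 signals of 2.08, 2.57 and 2.38 on the pre-heartbeat arrays and 2.96, 3.1 and 3.05 on the post-heartbeat arrays. The groups did not overlap. The difference was 0.70 (SE 0.17, 95% interval 0.30 to 1.09, 1.62-fold), with a limma adjusted p of 0.241, and after blocking on slide it was 0.77 (adjusted p = 0.0559). It was 0.95 within slide 1 and 0.58 within slide 2.

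Ldha had log2 signals of 7.27, 7.87 and 7.51 before and 7.46, 7.43 and 7.46 after. The 3 post-heartbeat arrays were nearly equal and lay inside the range of the others. The difference was -0.10 (SE 0.18, 95% interval -0.52 to 0.32, limma adjusted p = 0.882). Ldhc, the testis form, had signals between -8.43 and -8.00 on the 6 arrays, with intensities of 4.13 to 5.81. It was not well above background on any array, so no difference is given. Of 8 germ cell markers, Ddx4, Dazl, Sycp3, Pgk2 and Gapdhs were likewise not well above background on any array and Tnp1 was on 1, whereas Prm1 and Nanos3 were on all 6, with signals of -4.17 to -3.62 and -1.23 to -0.36.

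**Figure D2:**
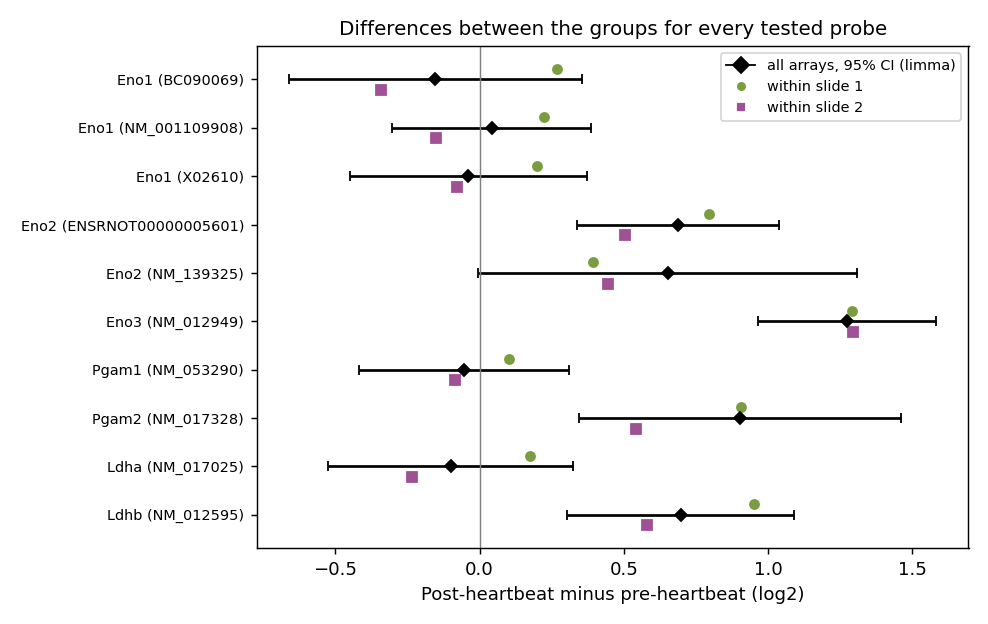
Difference between post-heartbeat and pre-heartbeat means in log2 units for the 10 tested probes (diamonds with 95% intervals from limma), with the difference within slide 1 (circles) and within slide 2 (squares). The Eno3 interval runs from 0.96 to 1.58, and the intervals of the Eno1, Pgam1 and Ldha probes include 0.

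The 3 very bright probes and the dimmer Ldhb probe shared a pattern before the first heartbeat. For Eno1, Pgam1, Ldha and Ldhb, pre-heartbeat replicate 2 had the highest scaled signal and replicate 1 the lowest. This is the reverse of the order of the 75th percentiles used for scaling, which were 1691.73, 1145.76 and 1481.25. Before scaling, the Ldha intensities on these arrays were 261000, 267000 and 271000, a range of 1.04-fold, whereas the 75th percentile ranged over 1.48-fold. The Pgam1 intensities ranged over 1.11-fold, those of Ldhb over 1.13-fold and those of Eno1 over 1.25-fold. Eno2, Eno3 and Pgam2 had other orders of the scaled signals. With quantile normalization in place of the percentile, the pre-heartbeat SD of Ldha was 0.10 rather than 0.30, and that of Eno1 0.10 rather than 0.40. The part of this pattern in the ratios that follow was not tested.

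Counted together, 4 of the 7 tested genes had higher and 3 lower means after the first heartbeat, with a median difference of 0.69, where 5886 of 12686 genes were higher and the median was -0.02. The study's methods selected genes by a change of at least 1.5-fold and a Tukey HSD p under 0.05. Applied here with that p unadjusted over probes, this selection took 4 members as higher (Eno2, Eno3, Pgam2 and Ldhb) and none as lower. It took 2.33% of all genes as higher and 1.21% as lower. The same 4 members had groups that did not overlap, against 6.31% of genes in that direction and 6.91% in the other. At an unadjusted limma p under 0.05, 4 members were higher and 0 lower, where 4.7% and 3.35% of genes were. After Benjamini-Hochberg adjustment, the methods' Tukey HSD test called 0 members in either direction.

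The isozyme ratio on an array does not depend on the single factor by which the array was scaled, and its change is a difference in how the signals of the 2 probes changed. It was formed for 5 pairs from the brightest probe of each gene, as the difference of 2 log2 signals on the same array. An exact permutation test of 3 arrays against 3 has 10 splits of this kind and cannot give a two-sided p below 0.1, so no ratio could pass 0.05. The size of a ratio also holds how brightly each probe binds and is not the molar ratio.

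The log2 ratio Eno3/Eno1 was -6.48, -7.24 and -6.92 before and -5.56, -5.36 and -5.44 after the first heartbeat. All post-heartbeat arrays were higher, by 1.43 on average (2.69-fold, exact permutation p = 0.1), and by 1.02 within slide 1 and 1.64 within slide 2. With the other Eno1 probes the change was 1.23 (NM_001109908) and 1.31 (X02610, annotated on another chromosome), also without overlap.

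Eno2/Eno1 was -9.28, -10.12 and -9.70 before and -8.86, -8.65 and -9.06 after, a change of 0.84 (exact permutation p = 0.1). The groups did not overlap with this Eno2 probe and any of the 3 Eno1 probes. They overlapped with the second Eno2 probe (changes of 0.61 to 0.81). Eno3/Eno2 was 2.80, 2.88 and 2.78 before and 3.30, 3.29 and 3.62 after, a change of 0.58 (exact permutation p = 0.1). Set against this brighter Eno2 probe, which was itself higher by 0.69 after the first heartbeat, 0.623% of genes were higher without overlap. Against Eno1, which differed by -0.15, the share was 5.53%. The second Eno2 probe gave a change of 0.62 for Eno3/Eno2, with groups separated by 0.03.

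Ldhb/Ldha was -5.19, -5.30 and -5.14 before and -4.50, -4.33 and -4.41 after the first heartbeat. The means were -5.21 ± 0.08 and -4.41 ± 0.08 (SD, n = 3 each). Before the first heartbeat this ratio spread less between replicates than Ldhb or Ldha did (SD 0.25 and 0.30). After it, the ratio (SD 0.084) spread more than Ldhb or Ldha did (SD 0.069 and 0.018). The change was 0.80 (1.74-fold, exact permutation p = 0.1), and 0.78 and 0.81 within the slides.

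Pgam2/Pgam1 was -11.49, -12.19 and -12.05 before and -10.73, -10.63 and -11.49 after. Pre-heartbeat replicate 1 and post-heartbeat replicate 3, which lie on different slides, met at -11.49, so the groups just overlapped. The change was 0.96 (1.94-fold, exact permutation p = 0.2), and 0.45 with normexp background correction. Of genes set against Pgam1, 6.83% were higher without overlap.

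**Figure D3:**
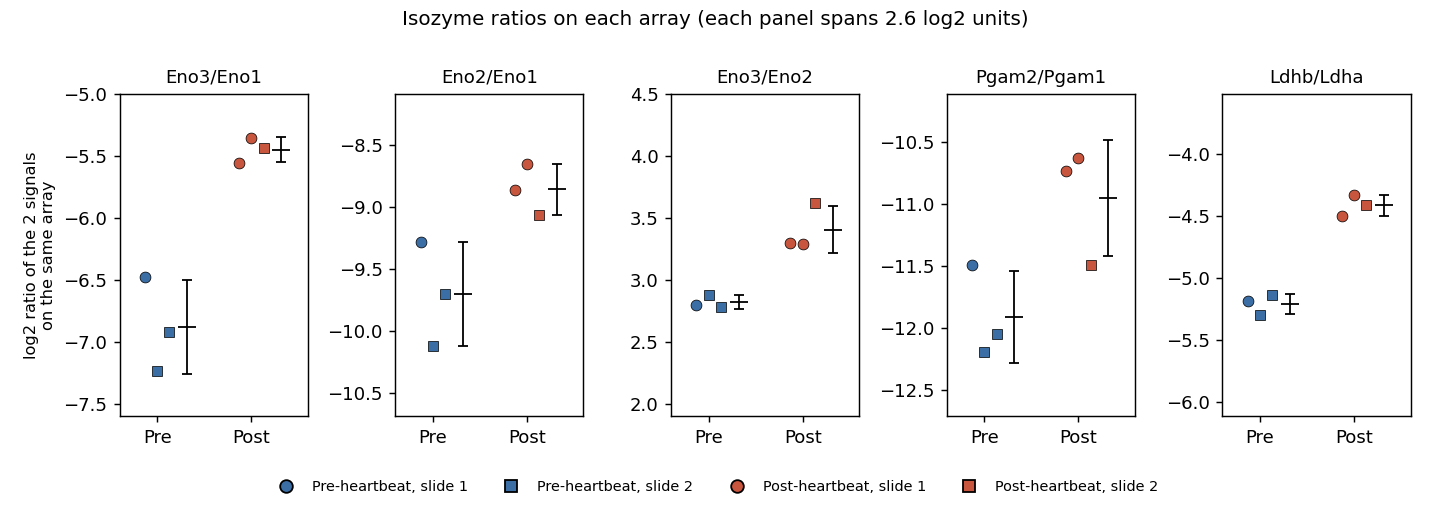
Log2 ratio of 2 isozyme signals on the same array for 5 pairs, with pre-heartbeat arrays in blue, post-heartbeat arrays in red, circles for slide 1 and squares for slide 2; bars are mean ± SD of 3 arrays. Every pair but Pgam2/Pgam1 has separate groups, and Ldhb/Ldha has an SD of 0.08 in both groups.

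The rest of the pathway was read from a list of 21 other enzymes of glycolysis and lactate metabolism, of which 18 were tested. By limma 0 were higher and 0 lower at an adjusted p under 0.05, and 2 were higher and 0 lower at an unadjusted p under 0.05 (4.7% and 3.35% of all genes). These 2, which the methods' selection took as well, act early in the pathway. Hk1, a hexokinase that phosphorylates glucose, had signals of 0.32, 0.20 and 0.53 before and 0.86, 0.96 and 1.21 after (0.66, SE 0.16, limma adjusted p = 0.266). Pfkp, the platelet form of phosphofructokinase, had 3.14, 3.38 and 3.36 before and 3.65, 3.96 and 4.17 after (0.63, SE 0.18, limma adjusted p = 0.347). The list's median difference was 0.12.

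The single-form or widespread enzymes next to the members differed little. Pgk1, the step before the mutase, differed by -0.04 (SE 0.17), Pkm, the step between enolase and lactate dehydrogenase, by -0.03 (SE 0.18), Gapdh by -0.02 (SE 0.21) and Bpgm, a relative of the mutases, by -0.03 (SE 0.13). Ldhd, which acts on D-lactate, differed by -0.18 (SE 0.18). Eno4, an enolase relative of sperm, was above background on 4 arrays and differed by -1.32 (SE 0.63, limma adjusted p = 0.813), with signals from -8.10 to -5.31. Hk3, Gapdhs and Pgk2 were not well above background on any array.

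**Figure D4:**
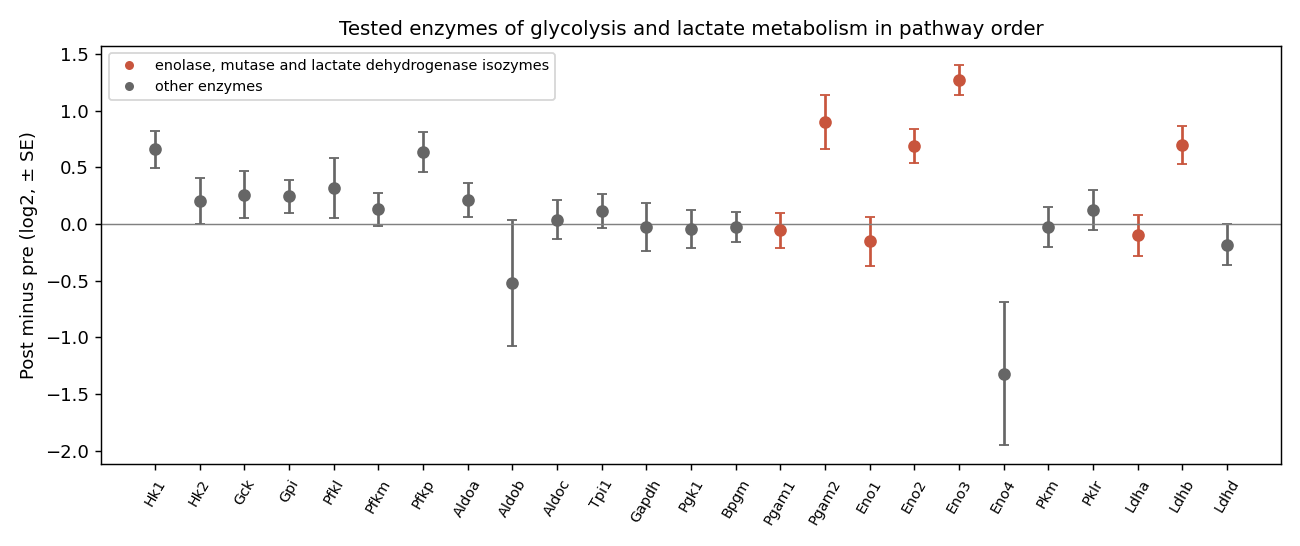
Difference between post-heartbeat and pre-heartbeat means in log2 units, with its standard error from limma, for the tested enzymes in pathway order, members in red and other enzymes in grey. Eno3 stands highest at 1.27, and the widespread members Pgam1, Eno1 and Ldha sit near 0 beside Gapdh, Pgk1 and Pkm.

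Eno3 and Pgam2 belong to the muscle forms of metabolic enzymes, and 12 other such genes were listed. On the array 11 were present and 6 were tested. By limma 1 was higher and 0 lower (0.158% and 0.0315% of all genes), 4 were higher by the methods' selection (2.33%), and the median was 1.12. Ampd1, the muscle AMP deaminase, passed the limma test, with signals of -3.13, -3.30 and -3.04 before and -1.97, -1.87 and -1.64 after (1.33, SE 0.15, adjusted p = 0.0455). Ak1, an adenylate kinase of muscle, differed by 1.26 (SE 0.16, limma adjusted p = 0.0518), Cox6a2, a muscle subunit of cytochrome c oxidase, by 1.54 (SE 0.25, limma adjusted p = 0.0999) and Pygm, muscle glycogen phosphorylase, by 0.72 (SE 0.18, limma adjusted p = 0.291). Pfkm, the muscle phosphofructokinase, differed by 0.13 (SE 0.15), with overlapping groups. Ckm, muscle creatine kinase, had separate groups and a difference of 0.97 (SE 0.35, limma adjusted p = 0.562). After blocking on slide, 4 of the 6 were called higher (Ckm, Cox6a2, Ak1 and Ampd1), against 1.47% of all genes. The cardiac marker sum given above was higher in the post-heartbeat group as well, and its part in these differences was not tested.

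Ldha, Eno1 and Pgam1 are known targets of HIF-1, the transcription factor of the hypoxia response, and 30 other such targets were all tested. By limma 0 were higher and 0 lower, 8 were higher and 0 lower at an unadjusted p under 0.05 (4.7% and 3.35% of all genes), and the median was 0.21. The methods' selection took 3 as higher (2.33% of all genes). These were Hk1, Slc16a3, a lactate exporter (0.62, SE 0.18), and Pfkfb4, which sets the level of fructose 2,6-bisphosphate (0.72, SE 0.13). Pfkfb4 was the single target called in the slide-blocked fit (adjusted p = 0.0465), which called 1.47% of all genes higher. Without overlap, 9 targets were higher and 0 lower, as were 6.31% and 6.91% of all genes. Slc2a1, the widespread glucose transporter, differed by -0.08 (SE 0.13).

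The genes most like a member in pattern were found from the root mean square difference of their centred log2 signals over the 6 arrays, among 12685 genes. For Eno3 these were Aqp1 (0.07), a water channel, Sh2d4a (0.08), Ak1 (0.10), Perp (0.10) and Ampd1 (0.11). For Ldhb they were Cdh13, Csrp1, Ptpla, Smpx and Tpm1, at 0.05 each, of which Smpx and Tpm1 encode muscle proteins. For Pgam2 they were Serpinf1 (0.06), Zmiz2, Gpx3, Itpka and Kcna5 (0.14). Of the other members, Eno2 was 143rd for Eno3, Ldhb 151st and Pgam2 202nd, and Pgam1, Ldha and Eno1 were 5905th, 7754th and 9496th. For Pgam2, Eno2 was 69th, Eno3 654th and Ldhb 845th, and Pgam1 was 7116th. For Ldhb, Eno2 was 121st, Eno3 1068th, Pgam2 2377th and Pgam1 3135th. The arrays share their scaling, so these ranks are a description over 6 arrays.

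The stretch before the start of Eno3 and Pgam2 is shown because these are the muscle forms. The sequences are the 250 bases upstream of the start in RefSeq, on the GRCr8 build, with each E-box (CANNTG, the letters bound by basic helix-loop-helix factors) in capitals. Eno3 lay at chr10:55868936-55869185 on the plus strand and Pgam2 at chr14:84897875-84898124 on the minus strand.

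Eno3 upstream: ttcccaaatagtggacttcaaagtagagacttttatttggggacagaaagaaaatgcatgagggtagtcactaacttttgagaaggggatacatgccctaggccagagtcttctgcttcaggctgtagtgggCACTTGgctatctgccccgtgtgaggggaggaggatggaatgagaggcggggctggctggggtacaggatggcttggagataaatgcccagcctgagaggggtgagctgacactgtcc
Pgam2 upstream: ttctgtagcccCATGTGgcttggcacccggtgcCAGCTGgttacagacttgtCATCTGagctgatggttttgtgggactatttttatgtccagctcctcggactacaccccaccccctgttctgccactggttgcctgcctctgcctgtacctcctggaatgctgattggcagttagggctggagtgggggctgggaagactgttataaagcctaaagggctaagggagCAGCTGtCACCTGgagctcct

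Eno3 held 1 E-box and Pgam2 held 5, and 65.5% of 33469 such windows in RefSeq held at least 1. Of the widespread forms, Ldha and 1 of the 2 starts of Eno1 held 3 each, and Pgam1 and the other start of Eno1 held none. Of the other forms tied to particular tissues, Eno2 held 1, Ldhc 2 and Ldhb none. The MEF2 motif, taken strictly as YTAWWWWTAR (2.96% of windows), was found before no member. The CArG box, taken as CCWWWWWWGG (1.5%), was found before Ldha and Ldhc but not before Eno3 or Pgam2. Here Y is C or T, W is A or T and R is A or G, and near matches were not counted. Pgam2 also held a TATA box (TATAAA, in 12.9% of windows on either strand). The HIF core letters ACGTG (16.6% of windows) occurred 3 times before Ldha and once each before Eno2 and Pgam1, and GCGTG (25.9%) once before Ldha, Pgam1, Ldhb and each of the 2 starts of Eno1, and 3 times before Ldhc. Neither was found before Eno3 or Pgam2 in these windows. A match is a run of letters on either strand and was not tested as a site.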

How the data were processed

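Total RNA (10 ng) of 6 heart primordium samples was labelled with Cy3 and hybridised to Agilent rat 8x60K arrays. Per the file headers, the authors scanned the arrays and extracted spot intensity values with Agilent Feature Extraction 10.7.3.1, which subtracted background and corrected spatial trends, and positions follow rn4. The deposited series table holds each probe's linear ratio to its median over the samples after a 75th percentile shift. Differences between arrays in the scanner values matched it within 0.01 log2 units for 100% of probes, once each array pair's median offset was removed. With that offset left in, the median difference between groups over tested probes was -0.033 here and -0.051 with the authors' ratios.

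The main values were log2 processed intensities minus the array's 75th percentile, without control spots and outlier spots, averaged over spots of a probe. A probe was tested where the scanner flagged at least 50% of its spots as well above background on every array of 1 group (19300 of 30367 probes). Groups were compared with limma 3.58.1 in R 4.3.3, with Benjamini-Hochberg adjustment over all tested probes, and ratios with two-sided exact permutation tests. The brightest tested probe stood for a gene. The test was tried on simulated data drawn without a slide effect, so this trial does not cover the slide differences seen here. Members, lists and tests were chosen with earlier results of these data known. All members are named, and of the other lists those past the limma threshold or the methods' selection, with the 5 genes nearest to Eno3, Pgam2 and Ldhb. Ckm, Pfkm, Slc2a1, Pgk1, Pkm, Gapdh, Bpgm, Ldhd, Eno4 and markers outside this rule were named after their values were seen. Alternatives were the slide or replicate number as a block, normexp (offset 50), quantile normalization, other filters, the authors' ratios, an intensity trend, probe means, the methods' Tukey HSD test (with 2 groups a pooled comparison of means, taken here without adjustment over probes, which the methods do not state) and leaving out each array. Only 6 arrays limit the precision. Promoter windows came from RefSeq (GRCr8), and all 8 members matched there.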

Additional observations from a re-analysis of the deposited data

How the results depend on the processing

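The differences of Eno2, Eno3, Pgam2 and Ldhb and the changes of all 5 ratios kept their direction under every alternative run. The number of member genes called higher by limma was 1 (Eno3). It was 0 without the filter on dim probes (Eno3 adjusted p = 0.123), 0 with the authors' ratios (0.0562), 0 with the methods' Tukey HSD test after adjustment, 0 without any 1 array, and 4 by the methods' selection. Eno3 differed by 1.23 to 1.33 over 16 alternatives, with adjusted p from 0.00841 to 0.273. The change of Pgam2/Pgam1 fell from 0.96 to 0.45 with normexp, where low intensities are raised by the offset, and that of Ldhb/Ldha was 0.68 with quantile normalization. The widespread forms changed sign around 0. Leaving out each array in turn gave -0.371 to 0.026 for Eno1, -0.149 to 0.055 for Pgam1 and -0.241 to 0.058 for Ldha, positive without pre-heartbeat replicate 2 alone. Pgam1 was 0.0081 with slide as a block and 0.068 with quantile normalization, where Ldha was 0.031. The cause was not tested.

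The muscle isoform enzymes called higher numbered 1, but 4 with slide as a block and 3 with the replicate block, and the HIF-1 targets 0, but 1 with slide as a block. Over all tested probes, 23 were higher and 4 lower by limma, against 222 and 88 with slide as a block, 95 and 49 with the replicate block, 43 and 7 with normexp, 11 and 3 with quantile normalization, 10 and 3 with the authors' ratios, 12 and 3 with the percentile over probes above background on all arrays, 38 and 7 with an intensity trend, 1 and 0 without the filter, and 0 to 1 in either direction without any 1 array. Same-numbered samples deviated with correlations of 0.65, -0.28 and 0.49, and 3 of 6 samples correlated best with their own number. Replicates 1 of both groups shared a slide, as did replicates 3, whereas replicates 2 did not, and these deviations were not adjusted for slide. Whether the replicate numbers pair the samples could therefore not be told. With the replicate block the adjusted p of Eno3 was 0.0255 and 1 member was called.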
